A study of Mus musculus with 25 samples.

Results

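S+P C7 and S+P C4 are 2 populations of fetus-specific CD8+ T cells sorted from the same kind of mouse, sensitized by an allograft and then pregnant, and they differ in the surface markers used to sort them. S+P C7 cells were PD1+CD73- and S+P C4 cells were PD1-. Their chromatin was compared over the 4 libraries of S+P C7 and the 4 libraries of S+P C4, which are 8 of the 25 libraries of the series, and over all 13527 peaks of the merged peak set. The libraries were taken by their columns in the deposited count table and paired by the replicate number in the column name.

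Accessibility was measured by ATAC-seq, in which a transposase cuts open chromatin and the reads at each peak are counted. The recipients were female C57BL/6 mice, purchased at 8 to 12 weeks of age. Their age when cells were taken is not stated. Every mouse of both groups had received an allogeneic skin graft and then carried a semi-allogeneic pregnancy by a BALB/c male that expressed the 2W-OVA transgene, and the graft came from the same 2W-OVA.BALB/c strain. The transgene is driven by an actin promoter and is expressed throughout donor and paternal tissues, so the cells that bind the OVA:Kb tetramer recognize the graft and the fetus alike. They are called T_FGS in the study. Cells came from the spleen and the pooled lymph nodes of single mice after delivery. The remaining groups used here for reference are S+P C5 (PD1+CD73+ cells of the sensitized and pregnant mice, 4 libraries), Sensitized (graft without pregnancy, 4 libraries), Naive (neither, 3 libraries), N+P C1 (PD1- cells of mice pregnant without a graft, 3 libraries) and N+P C5 (the PD1+CD73+ cells of those mice, 3 libraries).

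PD1, encoded by Pdcd1, is a receptor that dampens signaling through the T cell receptor and stays on T cells that meet antigen repeatedly. CD73, encoded by Nt5e, makes adenosine from AMP at the cell surface. T cells driven by lasting antigen are known to gain open enhancers at inhibitory receptor genes and at targets of AP-1, NFAT and T-box factors, while enhancers of the naive and memory program, at genes such as Tcf7, Lef1, Bach2, Satb1, Ccr7 and Il7r, lose access. The comparison asks how the chromatin of PD1+CD73- cells differed from that of PD1- cells in animals with the same history. PD1 protein was used to sort the groups, so a difference at Pdcd1 itself checks the sort.

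Some regions that carry the comparison are given below as the central 300 bases of each peak, read from GRCm39 on the plus strand. They are the 2 opening and the 2 closing peaks with the smallest adjusted p-values, the Pdcd1 peak about 22 kb upstream of the gene start, and 3 further peaks chosen after their values were seen because they hold an AP-1 or a TCF/LEF motif. A peak is called opening where it was higher in S+P C7 and closing where it was lower. Capitals mark matches, on either strand, to the motif strings AP-1 TGANTCA, CRE TGACGTCA, RUNX TGTGGTT, ETS GGAAGTG, T-box GGTGTGA, TCF/LEF CTTTGAT, NFAT TGGAAAA and NR4A AAAGGTCA. The CRE string does not contain the AP-1 string, and matches to different strings can share bases. The Wwox and Bach2 windows hold no match to these 8 strings.
Gtsf1l (opening, intergenic, 1 RUNX and 1 T-box match, chr2:162945155-162945454): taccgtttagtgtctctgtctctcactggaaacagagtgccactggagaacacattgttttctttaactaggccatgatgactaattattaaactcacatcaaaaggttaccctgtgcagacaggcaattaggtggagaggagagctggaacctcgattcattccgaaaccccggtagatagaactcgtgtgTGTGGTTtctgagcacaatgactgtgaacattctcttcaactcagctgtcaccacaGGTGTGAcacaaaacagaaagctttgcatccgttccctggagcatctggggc
Wwox (opening, intron, chr8:115704607-115704906): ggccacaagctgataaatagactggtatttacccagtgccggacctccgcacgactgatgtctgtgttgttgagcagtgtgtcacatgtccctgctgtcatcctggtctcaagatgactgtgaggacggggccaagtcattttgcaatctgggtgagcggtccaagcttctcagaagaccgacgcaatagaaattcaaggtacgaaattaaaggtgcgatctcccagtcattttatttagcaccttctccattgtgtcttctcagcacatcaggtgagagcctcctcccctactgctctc
Ppp2r5c (opening, intergenic, 1 TCF/LEF and 1 AP-1 match, chr12:110347998-110348297): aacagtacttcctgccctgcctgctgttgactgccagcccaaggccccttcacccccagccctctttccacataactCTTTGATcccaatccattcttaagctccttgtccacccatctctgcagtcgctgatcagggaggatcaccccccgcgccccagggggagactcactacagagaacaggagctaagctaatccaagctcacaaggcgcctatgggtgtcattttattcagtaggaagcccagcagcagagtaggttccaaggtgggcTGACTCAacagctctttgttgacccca
Trps1 (opening, intergenic, 1 AP-1 match, chr15:50516718-50517017): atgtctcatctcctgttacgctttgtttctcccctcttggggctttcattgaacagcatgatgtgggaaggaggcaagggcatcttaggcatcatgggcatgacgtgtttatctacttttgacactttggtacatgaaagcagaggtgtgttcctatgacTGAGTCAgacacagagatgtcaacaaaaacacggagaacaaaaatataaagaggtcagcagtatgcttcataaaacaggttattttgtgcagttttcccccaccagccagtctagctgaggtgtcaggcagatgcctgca
Pdcd1 (opening, intergenic, 2 RUNX matches, chr1:94002578-94002877): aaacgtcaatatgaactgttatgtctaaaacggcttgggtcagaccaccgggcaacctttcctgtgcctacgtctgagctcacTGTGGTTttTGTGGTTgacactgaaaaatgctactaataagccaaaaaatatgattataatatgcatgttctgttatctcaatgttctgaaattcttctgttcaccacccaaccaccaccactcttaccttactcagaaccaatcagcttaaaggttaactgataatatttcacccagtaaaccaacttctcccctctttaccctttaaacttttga
Bach2 (closing, intron, chr4:32290972-32291271): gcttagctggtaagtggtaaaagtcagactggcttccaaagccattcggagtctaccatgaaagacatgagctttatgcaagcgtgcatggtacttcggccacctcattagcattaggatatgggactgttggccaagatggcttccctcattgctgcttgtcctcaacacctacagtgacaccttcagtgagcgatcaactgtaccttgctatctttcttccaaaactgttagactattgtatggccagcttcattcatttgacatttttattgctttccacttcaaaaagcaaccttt
Klf5 (closing, intergenic, 1 NFAT match, chr14:99687040-99687339): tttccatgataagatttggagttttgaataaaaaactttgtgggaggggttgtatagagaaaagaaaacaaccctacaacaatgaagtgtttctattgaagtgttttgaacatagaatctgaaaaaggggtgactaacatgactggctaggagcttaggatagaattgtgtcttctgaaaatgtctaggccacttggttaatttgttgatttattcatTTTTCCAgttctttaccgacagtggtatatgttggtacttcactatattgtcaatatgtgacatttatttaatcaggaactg
Tspan11 (closing, in an intron of Tspan9, 1 TCF/LEF match, chr6:127968715-127969014): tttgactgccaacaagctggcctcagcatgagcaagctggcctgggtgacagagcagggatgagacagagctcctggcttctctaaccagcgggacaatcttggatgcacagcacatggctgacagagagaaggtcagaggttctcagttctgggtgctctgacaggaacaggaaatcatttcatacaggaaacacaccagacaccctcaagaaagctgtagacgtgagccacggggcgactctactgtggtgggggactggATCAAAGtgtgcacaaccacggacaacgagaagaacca

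The 8 libraries held between 2430890 and 12638751 counts in peaks, and the range was 4789587 to 12638305 in S+P C7 and 2430890 to 12638751 in S+P C4. Counts in promoter peaks took 66.9% ± 0.51 of the total in S+P C7 and 66.6% ± 1.69 in S+P C4 (SD, n = 4 each; two-sided exact permutation p = 0.829). S+P C4 replicate 1 stood apart. It was the shallowest library, its correlation with the other S+P C4 libraries on the log2 scale was 0.81 to 0.909, against 0.936 to 0.963 within S+P C7, and its highest peak took 1.28% of its counts, against 0.193% to 0.203% in the other 3 S+P C4 libraries. The labelled cell type held. Promoter peaks were present for 10 of 11 CD8 T cell markers, with no call among them, and for 0 of 10 B cell markers. Of the myeloid markers 1 of 12 (Cd68) had a promoter peak, of the CD4 T cell markers 1 of 6 (Gata3), of the erythroid markers 1 of 9 (Klf1) and of the NK cell markers 2 of 8 (Eomes and Nfil3, which CD8 T cells also express). Lyz2, Csf1r, Ncr1, Klrb1c and Cd4 had none. The summed level over length was 923 to 1257 in S+P C7 and 611 to 763 in S+P C4 for the NK cell markers, and 415 to 731 against 291 to 409 for the Cd68 promoter, in normalized counts per kb. The part of other cells in the results was not tested.

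The chromatin of S+P C7 differed from that of S+P C4 mainly away from promoters. Some regions near inhibitory receptor, effector and exhaustion-associated genes opened, and some near naive and memory genes closed. The gene lists used below were chosen with earlier results of these data known, so their shares are descriptions and not independent support. Of 13527 peaks, 1079 passed adjusted p below 0.1 with a log2 fold change beyond 0.9 in DESeq2, which is 7.98% of the peaks tested. They were 363 opening peaks (2.68%) and 716 closing peaks (5.29%). The median log2 fold change was 1.18 among opening peaks, with a maximum of 3.52, and -1.41 among closing peaks, with a minimum of -2.76. Changes beyond 2 on the log2 scale were seen in 40 opening and 124 closing peaks. Without the fold threshold 3493 peaks passed, 1677 higher and 1816 lower. All 4 pairs moved the same way in 1071 of the 1079 called peaks, against 43.9% of all peaks. In 759 of the called peaks every library of S+P C7 lay on the same side of every library of S+P C4, as in 16.02% of all peaks. The called peaks were chosen by the same libraries and pairs, so both counts follow in large part from that choice. ATAC-seq of sorted populations cannot tell apart fewer cells with an open site and less access per cell.

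The split between directions depended on how counts were scaled. With loess offsets, which remove trends of the fold change with the mean count, 467 peaks opened and 342 closed, so that opening peaks were 57.7% of the calls in place of 33.6%. The decile of peaks with the lowest mean count had a median log2 fold change of -0.39 before and 0.07 after the offsets, and it held 33.8% closing peaks.

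**Figure D1:**
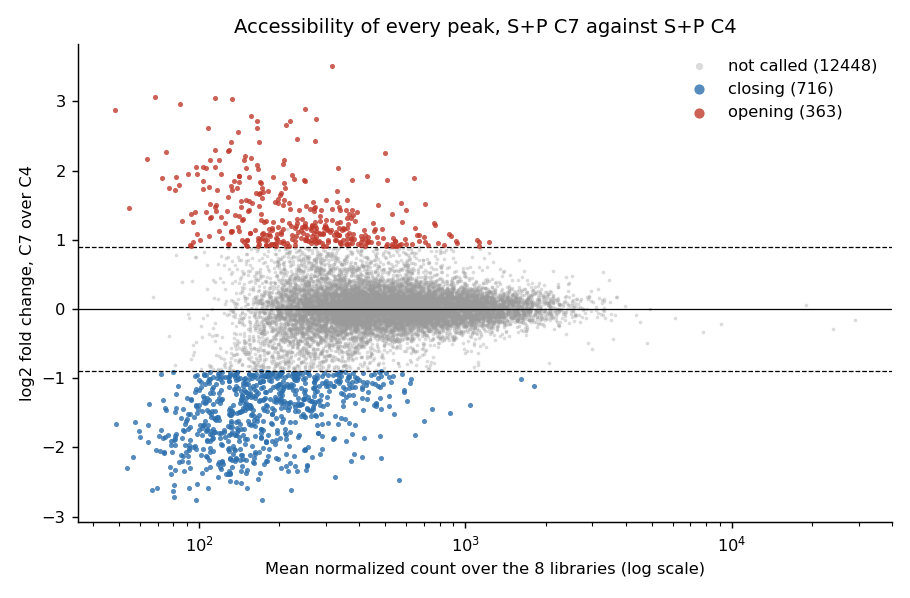
Each point is 1 of the 13527 peaks, with its mean normalized count over the 8 libraries on a log axis and its log2 fold change (S+P C7 over S+P C4) on the vertical axis. Red points are the 363 opening and blue points the 716 closing peaks, dashed lines mark the fold threshold, and most called peaks lie at low to middle counts, away from the dense band around 0.

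Called peaks were rare at promoters. Of 7670 promoter peaks, defined by a midpoint within 1000 bp of a protein-coding transcript start, 18 (0.235%) opened and 76 (0.991%) closed. In introns the shares were 6.71% and 11.2% of 2920 peaks, and between genes 5.28% and 10.7% of 2650. Promoters were thus 4.96% of the opening and 10.6% of the closing peaks, against 56.7% of all peaks. Of the opening peaks 43.8% and of the closing peaks 40.4% lay over 50 kb from the nearest gene start, against 15.1% of all peaks. Genes are named below by the nearest protein-coding start, which does not show that a peak acts on that gene.

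The peaks that opened were low in Naive cells and those that closed were high in them. The median normalized count over the 363 opening peaks was 35.4 ± 1.61 in Naive (SD, n = 3), 127 ± 51.4 in Sensitized (n = 4), 134 ± 18.7 in S+P C4 (n = 4), 327 ± 78.9 in S+P C7 (n = 4) and 360 ± 77.7 in S+P C5 (n = 4). The 716 closing peaks ran the other way, at 448 ± 14.3 in Naive, 277 ± 116 in Sensitized, 243 ± 100 in S+P C4, 147 ± 39.8 in S+P C5 but 86.9 ± 27.7 in S+P C7. These peaks were chosen by the difference between S+P C4 and S+P C7, so the order of those 2 groups is set by the choice. In the groups pregnant without a graft N+P C1 had medians of 31.7 ± 3.54 at opening and 424 ± 47.8 at closing peaks (n = 3), while N+P C5 had 48.6 ± 3.74 at opening and 412 ± 38.8 at closing peaks (n = 3).

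S+P C4 libraries varied more at the closing than at the opening peaks. Their medians over closing peaks were 374, 265, 149.9 and 182 in replicates 1 to 4, and those of S+P C7 were 128, 73.2, 74.6 and 71.5. The lowest S+P C4 library stood above the highest S+P C7 library. Over the opening peaks S+P C4 stood at 116, 135, 159.8 and 127, and S+P C7 at 364, 409, 311 and 225. The study's gating plot of these mice shows Clusters 1 and 4 together, and the study describes Cluster 1 as naive-like. Whether S+P C4 held such cells was not tested.

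**Figure D2:**
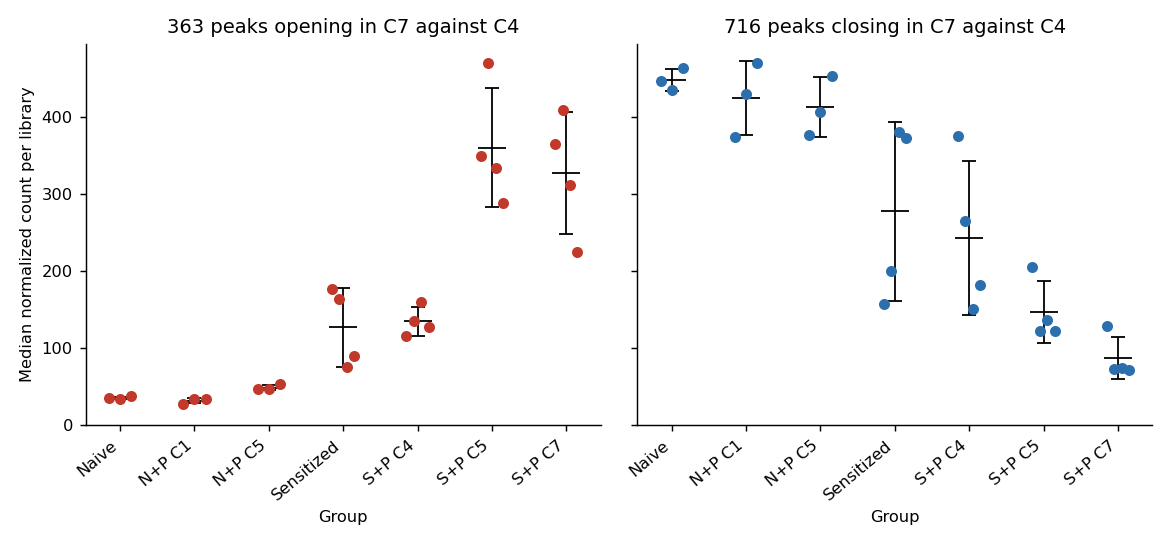
Points are the median normalized count of each library over the 363 opening peaks (left) and the 716 closing peaks (right), by group; the black bar is the mean and the whiskers 1 SD over libraries. Opening peaks are at 52.9 or less in all libraries of unsensitized mice and at 225 or more in all PD1+ libraries of the grafted mice, and closing peaks fall from Naive to S+P C7.

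The authors also deposited a list of reproducible peaks for each group. The lists differ in size, and the merged peaks were in the S+P C5 list for 82.9%, in the Sensitized list for 71.1%, in the S+P C7 list for 64.0%, in the Naive list for 62.6% and in the S+P C4 list for 27.0%, the fewest of the 7 lists. Of the opening peaks 340 (93.7%) were in the S+P C5 list, above its share of all peaks, and 175 (48.2%) in the S+P C7 list, below its share of all peaks. The S+P C4 list held 7 opening peaks (1.93%) and the Naive list 1 (0.275%). Of the closing peaks 551 (77.0%) were in the Naive list, above its share of all peaks. The Sensitized list held 231 of them (32.3%), the S+P C4 list 30 (4.19%) and the S+P C7 list 3 (0.419%), all below the shares of all peaks.

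The peak with the smallest p-value lay 13.4 kb upstream of Gtsf1l, between genes (chr2:162944721-162945889). Its normalized count was 1013, 1187, 633 and 489 in S+P C7 replicates 1 to 4 and 235, 169, 140.04 and 131 in S+P C4. All S+P C7 libraries stood above all S+P C4 libraries. The log2 fold change was 2.25 (SE 0.17, adjusted p = 2.41e-37), a 4.75-fold difference. In S+P C5 the level was 885 ± 184 (SD, n = 4), and the S+P C7 against S+P C5 difference was -0.15 on the log2 scale (adjusted p = 0.344).

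The steepest opening was in an intron of Wwox (chr8:115704362-115705151), a gene whose far end lies beside Maf, which encodes a transcription factor of regulatory and exhausted T cells. Counts were 805, 1011, 355 and 142 in S+P C7 and 119, 37.6, 36.8 and 14.6 in S+P C4. The spread within each group was wide and the groups did not overlap. The fold was 11.4 (log2 3.52, SE 0.27, adjusted p = 2.56e-35). Without the replicate block the log2 value was 3.497, and leaving out S+P C4 replicate 1 raised it to 4.29 (1.74 times), while loess offsets gave 4.14. Of 10 peaks nearest Wwox 3 opened and 5 closed. The closing ones lay 362 to 441 kb from its start (log2 -2.54 to -0.99) and the opening ones 534 to 625 kb, so the opening and the closing peaks lay in separate stretches.

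Other leading opening peaks lay near Ppp2r5c, Srp54a, Pkdcc, Mmp10, Trps1 and Eomes. Ppp2r5c encodes a regulatory subunit of the phosphatase PP2A, and 4 of its 8 peaks opened, all between 57.4 and 71.7 kb from the gene start (log2 2.06 to 3.04). At the peak 65.4 kb away the counts were 646, 729, 313 and 199 in S+P C7 and 174, 57.1, 65.1 and 22.2 in S+P C4. The groups did not overlap there, although the lowest S+P C7 and the highest S+P C4 library lay close. Folds at the leading peaks of Srp54a, Pkdcc, Mmp10 and Trps1 were 5.4, 3.65, 7.39 and 5.47. The Mmp10 peak was lower in S+P C7 than in S+P C5 (log2 -1.03, adjusted p = 0.0124), a comparison in which 443 peaks (3.27%) were called.

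The peak with the smallest p-value among closing ones lay in an intron of Bach2 (chr4:32289841-32292403), which encodes a repressor that holds T cells in a quiescent state. Counts were 261, 155, 149 and 119.5 in S+P C7 and 1205, 1046, 447 and 487 in S+P C4. The groups did not overlap, and S+P C4 replicates 1 and 2 were the highest of the 8. The log2 fold change was -2.15 (SE 0.18, adjusted p = 1.53e-30). Naive cells stood at 1542 ± 232 (SD, n = 3) and S+P C5 at 334 ± 93.3 (n = 4). S+P C7 was lower than S+P C5 as well (log2 -0.97, adjusted p = 1.50e-09).

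The next 7 closing peaks by p-value were nearest to Klf5, St6gal1, Tspan11, Irs2, Tnfrsf10b, St8sia1 and Ankrd50. The Klf5 peak (chr14:99686537-99687843), 151 kb from the gene, was at 136, 93.6, 59.6 and 62.3 in S+P C7 and at 708, 357, 276 and 345 in S+P C4, a 4.8-fold difference without overlap. St6gal1 and St8sia1 encode sialyltransferases, which cap surface glycans. The St6gal1 promoter peak was at 535, 277, 220.4 and 327 in S+P C7 and at 1640.1, 1179.97, 634 and 776 in S+P C4 (log2 -1.61, SE 0.14, adjusted p = 3.85e-26). All 5 peaks of St8sia1, its promoter included, closed (log2 -2.24 to -0.95). Irs2 encodes an adaptor of insulin and cytokine signaling, and Tnfrsf10b the mouse receptor for the death ligand TRAIL. Their peaks were 3.55-fold and 3.63-fold lower.

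**Figure D3:**
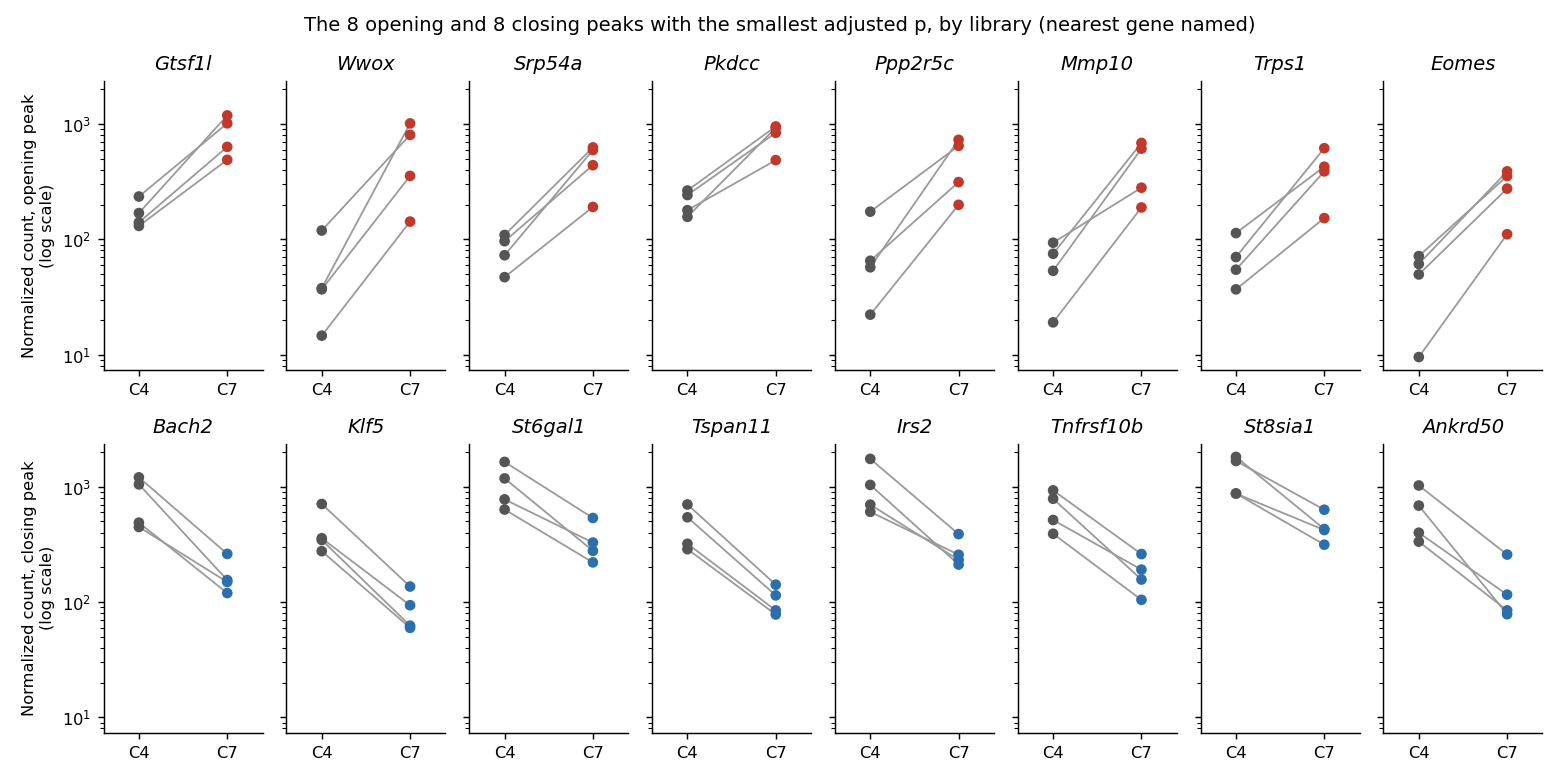
Normalized count (log axis) of the 8 opening and the 8 closing peaks with the smallest adjusted p-values in each of the 4 S+P C4 and 4 S+P C7 libraries, with lines joining equal replicate numbers. Groups do not overlap in any panel, which the choice of these peaks required, and the gap between the nearest libraries of the groups runs from 1.15-fold (Ppp2r5c) to 2.08-fold (Gtsf1l).

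Co-inhibitory receptor genes had 29 peaks, of which 5 opened and 1 closed (17.2% and 3.45%, against 2.68% and 5.29% of all peaks), with a median log2 fold change of 0.21 against 0.01 for all peaks. With loess offsets 8 opened and 0 closed. Pdcd1 encodes PD1, the marker by which the groups were sorted, and 3 of its 5 peaks opened. Without Pdcd1 the list had 24 peaks, 2 opening (8.33%) and 1 closing (4.17%). The peak 3.02 kb upstream (chr1:93982381-93984275) was at 852, 979, 893 and 545 in S+P C7 and 323, 266, 461 and 299.8 in S+P C4. The groups did not overlap (log2 1.26, SE 0.16, adjusted p = 1.15e-12). The peak 22.4 kb upstream, printed above, was at 654, 558, 645 and 247 in S+P C7 and 153, 215, 253 and 121 in S+P C4, where S+P C7 replicate 4 fell below S+P C4 replicate 3 (log2 1.43, SE 0.18). A peak 10.02 kb downstream of the start was 2.35-fold higher. The 2 farther upstream peaks, at 26.7 and 39.4 kb, had log2 values near -0.10 each (adjusted p = 0.808 and 0.724). Naive cells were at 70.1 ± 8.98 and 27.8 ± 9.68 (SD, n = 3) at the first pair of sites, and S+P C5 cells at 759 ± 162 and 549.7 ± 207 (n = 4), where S+P C7 differed from S+P C5 by 0.11 and -0.04 on the log2 scale.

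Ctla4, an inhibitory receptor that competes with CD28 for ligand, had 1 opening peak of 3, in an exon (log2 1.04, SE 0.13, adjusted p = 2.01e-13). Its counts were 1098, 1248, 792 and 619 in S+P C7 and 623, 566, 304 and 344 in S+P C4, so that S+P C7 replicate 4 and S+P C4 replicate 1 were nearly equal. The call was lost after thinning to the shallowest library and, without the block, when S+P C7 replicate 2 or S+P C4 replicate 3 was left out, with a lowest log2 value of 0.87. Tigit, which binds CD155, opened at 1 of 5 peaks, in an intron 2.24 kb from its start. Counts there were 324, 237, 224 and 225 against 136, 81.8, 97.6 and 104 (log2 1.27, SE 0.22, adjusted p = 3.69e-07). Havcr2, which encodes TIM-3, had 4 peaks with log2 values of 0.65 to 0.87, below the fold threshold, with adjusted p between 0.00293 and 0.036. An intronic peak of Cd96, a further receptor for CD155, closed (log2 -2.53, SE 0.36), but its value was -0.85 and not called with loess offsets.

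Transcription factor genes linked to exhaustion had 95 peaks, 13 opening (13.7%) and 3 closing (3.16%), against 2.68% and 5.29% of all peaks. Leaving out replicate 1 of both groups gave 9 opening and 3 closing, and loess offsets 14 and 3. The peak 161 kb upstream of Eomes, a T-box factor of effector and exhausted CD8 cells, was at 354, 388, 275 and 111 in S+P C7 and 71.5, 61, 49.5 and 9.51 in S+P C4 (log2 2.72, SE 0.28, adjusted p = 5.60e-20), and its log2 value was 3.77 with loess offsets. At the Eomes promoter the log2 value was 0.72 (adjusted p = 4.36e-06), short of the fold threshold. Ikzf2, encoding Helios, opened 3.61-fold at an intronic peak 143 kb from its start, where counts were 589, 518, 249 and 209.8 against 159.9, 139, 66.5 and 62.8. Pbx3 (log2 1.86), Maf (1.55, 237 kb away), Tox2 (1.25 at the promoter), Bhlhe40 (1.03) and Egr2 (0.92) opened at 1 peak or more.

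Tox and Nfatc1 moved in both directions. TOX is a nuclear factor needed for the exhausted state, and NFATc1 is induced by calcium signaling. Along Tox, peaks 109 and 147 kb into the gene opened (log2 1.85 and 1.09), while a peak 20.9 kb from the start and one 464 kb upstream closed (log2 -1.46 and -1.35). The nearer closing peak was at 206, 139.6, 118 and 85.8 in S+P C7 and at 561, 435, 221 and 296 in S+P C4 (SE 0.20, adjusted p = 4.49e-11). It was also lower in S+P C7 than in S+P C5 (log2 -1.16, adjusted p = 3.52e-10). At Nfatc1 a peak 28.5 kb into the gene opened (log2 0.98) and a peak 25.3 kb upstream, within Atp9b, was 4.01-fold lower (log2 -2.003, and -1.29 with loess offsets). In all, 29 genes were nearest to both an opening and a closing peak, among 300 genes with opening and 554 with closing peaks. The peaks of Nr4a1 (5), Nr4a2 (2), Nr4a3 (4), Irf4 (2), Batf (3) and Prdm1 (5) gave no call.

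Genes of the naive, memory and stem-like program had 146 peaks. Of these 35 closed (23.97%) and 2 opened (1.37%), against 5.29% and 2.68% of all peaks. The median log2 fold change of the list was -0.30. Without replicate 1 the counts were 30 and 1, and with loess offsets 25 and 4. The 2 opening peaks lay near Gpr183 and Il6st. Ccr7, the receptor that guides T cells into lymph nodes, closed at 5 of 6 peaks. The one 8.15 kb upstream was at 179, 104, 81.2 and 92.8 in S+P C7 and 602, 567, 351 and 329 in S+P C4 (log2 -2.02, SE 0.19, adjusted p = 7.74e-23). Satb1, a chromatin organizer of the naive state, closed at 8 of 12 peaks, from 7.08 to 335 kb from its start (log2 -2.58 to -0.93). Its peak with the smallest p-value was at 256, 197, 227 and 166 in S+P C7 against 959.5, 705, 383 and 417 in S+P C4.

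Bach2 closed at 5 of 13 peaks, all of them 52.4 to 126 kb into the gene, while 7 peaks from 112 kb upstream to 19.9 kb downstream of its start were not called. Lef1, a partner of TCF-1, closed at 5 of 13, from -1.07 to -2.37 on the log2 scale. The 3 peaks of Dapl1 and 4 of 15 peaks of Foxp1 closed. Il7r, the receptor chain for the survival cytokine IL-7, closed at 2 of 5 peaks, and the leading one was at 243, 201, 234 and 209.8 against 664, 611, 385 and 369.5 (log2 -1.15, SE 0.19). Tcf7, which encodes TCF-1, had 0 calls among 6 peaks. Its leading peak, 30.4 kb upstream, was 1.71-fold lower without overlap (log2 -0.77, SE 0.14, adjusted p = 4.06e-07), short of the fold threshold.

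**Figure D4:**
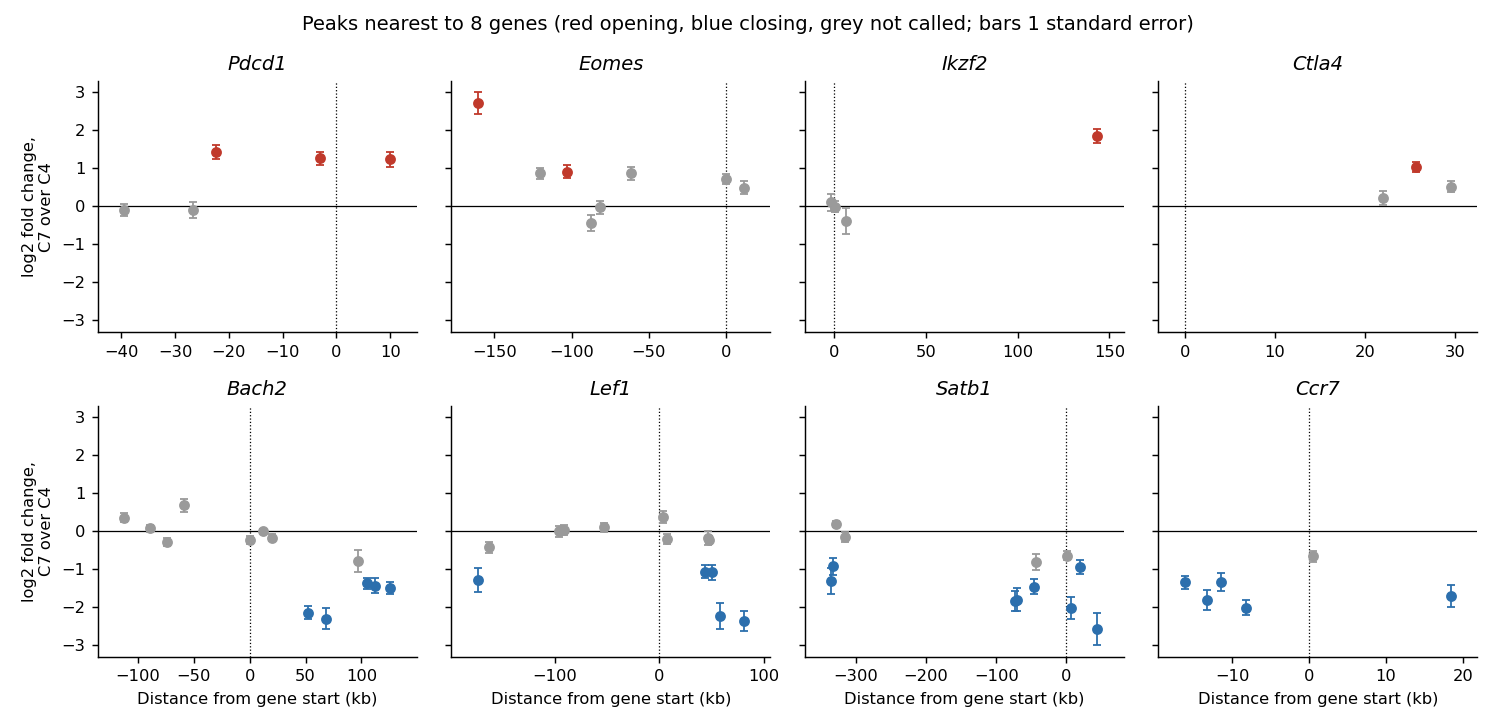
Log2 fold change (S+P C7 over S+P C4, bars 1 standard error) of every peak nearest to 8 genes against the signed distance in kb from the gene start. Called peaks of Pdcd1, Eomes, Ikzf2 and Ctla4 (top) open and called peaks of Bach2, Lef1, Satb1 and Ccr7 (bottom) close, while no peak within 1 kb of these gene starts passes the fold threshold. Pdcd1, Ctla4 and Lef1 have no peak within 1 kb of the start.

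Effector genes had 75 peaks, 12 opening (16%) and 1 closing (1.33%), against 2.68% and 5.29% of all peaks. The median log2 fold change of the list was 0.50. Without replicate 1 there were 8 and 1, and with loess offsets 15 and 1. Of the opening peaks 4 lay near Il10 and 3 near Fasl. Il10, an anti-inflammatory cytokine, opened at 4 of 5 peaks. The intronic one was at 1138, 1622, 802 and 519 in S+P C7 and 357, 217, 283 and 182 in S+P C4 (log2 1.89, SE 0.32, adjusted p = 1.84e-07). The S+P C4 value nearest to S+P C7 was that of replicate 1. Ifng opened at 2 of 6 peaks, 5.47 and 29.6 kb from its start (log2 0.93 and 1.04), and a peak 193 kb away closed (log2 -1.65). Peaks near Fasl, the ligand of the death receptor Fas (log2 1.72, and 2.91 with loess offsets), Cx3cr1 (1.26), Itga4 (1.09) and Tbx21 (1.03, at a peak 5.54 kb from the start) opened too. Gzmb, with log2 values of 0.07 to 0.35 at 3 peaks, and Prf1, with -0.20 to 0.63 at 4, encode cytotoxic granule proteins and gave no call.

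Genes that brake T cell receptor signaling had 95 peaks, 9 opening (9.47%) and 7 closing (7.37%), against 2.68% and 5.29% of all peaks. Without replicate 1 the counts were 8 and 5, and with loess offsets 10 and 5. Ptpn13 (log2 1.48) and Ptpn11, the phosphatase SHP-2 (1.55), opened, and kept their calls under all 27 alternatives run. Rgs16 (log2 0.98) opened too, but its call was lost under 4 of them, limma-voom and leaving out replicate 1 (0.82) included. Rgs10, which shortens G protein signaling, had 2 neighboring intronic peaks with log2 values of -2.59 and -2.51, which were -1.48 and -1.40 with loess offsets. The stronger was at 76.5, 32.3, 28.2 and 29.9 in S+P C7 and at 439, 309, 174 and 124 in S+P C4. Cblb, a ubiquitin ligase of anergy, had 1 opening and 3 closing peaks. Its leading closing peak was 3.69-fold lower, with S+P C7 replicate 1 at 179 overlapping S+P C4 replicate 3 at 175.

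Cytokine receptor genes had 66 peaks, 2 opening (3.03%) and 8 closing (12.1%), against 2.68% and 5.29% of all peaks. The closing peaks included Ifngr2 (log2 -2.03), Tgfbr3 (-2.37) and Tgfbr2 (-2.18). With loess offsets 3 opened and 2 closed, the Tgfbr2 peak was no longer called and the Tgfbr3 value was -1.13. Chemokine receptor, homing and adhesion genes had 50 peaks, 6 opening (12%) and 2 closing (4%), against 2.68% and 5.29% of all peaks. Without replicate 1 the counts were 4 and 2, and with loess offsets 8 and 1. Cd44, the hyaluronan receptor of antigen-experienced T cells, opened at a site 55.3 kb upstream (532, 693, 477 and 325 against 105, 140.2, 201 and 154). Cxcr3 opened 3.19 kb upstream (log2 1.06) and Cxcr4 had 2 opening peaks of 12, 216 and 240.2 kb upstream (1.11 and 1.09), and 1 closing peak 10.4 kb upstream (-1.97). The call of the farther opening peak was lost under 4 alternatives, thinning and leaving out replicate 1 or replicate 2 included, with adjusted p up to 0.248. Among co-stimulatory genes 2 of 45 peaks opened (4.44%, against 2.68% of all peaks), and 1 without replicate 1, where the Tnfrsf8 call was lost. Of these the Slamf7 promoter was 4.44-fold higher, at 209, 260.5, 189 and 109.97 against 47.6, 37.6, 69.3 and 22.8 (log2 2.15, and 3.35 with loess offsets).

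The remaining lists held 4 called peaks or fewer in either direction. AP-1 family genes had 34 peaks with 0 opening and 2 closing (5.88%), both in Bach1, against 2.68% and 5.29% of all peaks. RUNX and ETS genes had 4 opening (6.06%) and 1 closing (1.52%) of 66, and 7 and 0 with loess offsets. Jak, Stat and Socs genes had 3 opening of 40 (7.5%), at Socs5, Stat3 and Jak2, against 2.68% of all peaks. Without replicate 2 Jak2 and Stat3 were not called, and Jak2 was not called after thinning either. Cell cycle genes had 1 opening and 1 closing of 38 (2.63% each). NK-type receptor genes had 0 opening and 2 closing of 23 (8.7%), both near Cd226 and neither called with loess offsets. CD8 T cell marker genes had 0 calls in 36 peaks. Adenosine pathway genes had 1 closing peak of 22 (4.55%), near Dpp4. It was not called with loess offsets (log2 -1.67 and -0.42), where the list had 2 opening and 0 closing peaks. NK cell marker genes had 3 opening peaks of 19 (15.8%), at Eomes and Nfil3, myeloid genes 1 of 4, in the neighborhood of Itgax, and B cell, CD4 T cell and erythroid genes 0 of 1, 0 of 10 and 0 of 1. Several of these calls lay close to the fold threshold. Of 27 alternatives Etv6 lost its call under 16, and the weaker Bach1 peak (log2 -0.90), the Eomes peak 103 kb away (0.91) and the Itgax peak (0.91) under 11 each, leaving out replicate 1 included. E2f2, the opening call among cell cycle genes, lost it under 5, leaving out replicate 1 included (log2 0.78). Without replicate 1 the NK cell markers had 2 opening peaks, the myeloid genes 0 and the AP-1 family 1 closing peak.

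**Figure D5:**
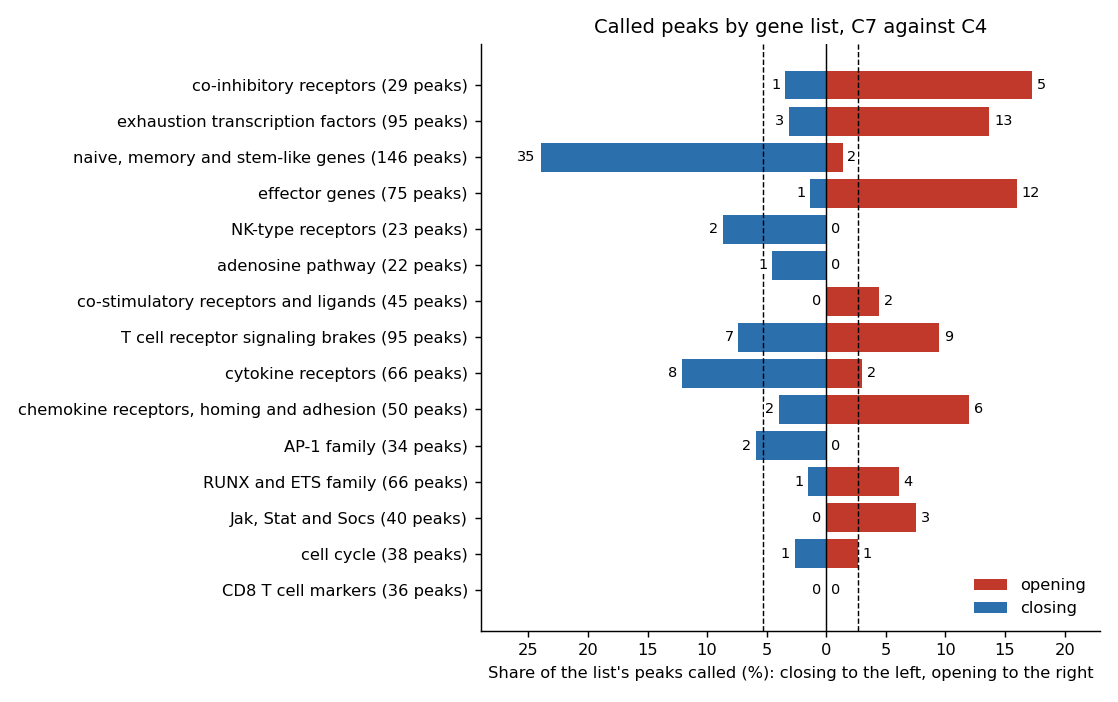
Share of each gene list's peaks that opened (red, right) or closed (blue, left), in percent, for the 15 lists with at least 20 peaks, with the number of called peaks at the bar ends. Dashed lines mark the shares over all peaks (2.68% and 5.29%), and the naive, memory and stem-like list reaches 23.97% closing. The lists were chosen with earlier results of these data known.

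Nt5e, which encodes CD73, was not called at any of 5 peaks. S+P C7 and S+P C4 counts at its promoter were 198, 283, 273 and 304 against 378, 296, 304 and 345 (log2 -0.33, SE 0.19, adjusted p = 0.248). An intronic peak 5.62 kb from the start was at 57, 143, 97.8 and 52.1 in S+P C7 and at 170.1, 70.1, 89.1 and 49.4 in S+P C4, with no difference beyond the spread (log2 -0.07, SE 0.39). It stood at 328 ± 60.3 in S+P C5 (SD, n = 4), from which S+P C7 differed by -2.02 on the log2 scale (adjusted p = 6.73e-20), and CD73 was the marker that separated those groups in the sort. The C7 against C4 value at this low-count peak turned to 1.18 (adjusted p = 0.0207) with loess offsets.

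The motif strings listed above were not found in equal shares of opening and closing peaks. Shares are of the central 300 bases and of peaks outside promoters, 345 opening, 640 closing and 5857 in all. The AP-1 string was in 30.1% of opening, 8.75% of closing and 15.8% of all peaks. T-box stood at 15.4%, 5.47% and 7.72%, NFAT at 11.6%, 5.47% and 7.31%, and NR4A at 4.35%, 0.625% and 1.59%. TCF/LEF was in 8.12% of opening, 15.2% of closing and 7.2% of all peaks. RUNX was similar in each (18.6%, 22.97% and 20.1%), ETS was at 12.2%, 16.7% and 17.6% and the CRE string at 0.87%, 0.625% and 1.3%. Strings for KLF, IRF, NF-kB, STAT, GATA, the GC box and the ZEB and E2A E-boxes were counted as well. Among them the GC box was at 2.9%, 3.75% and 8.57%, and GATA at 12.8%, 16.9% and 13.7%. Median GC content was 45.7%, 47.0% and 48.7%. These shares are descriptions without a test, since peaks of the same libraries are not replicates. Over all peaks, promoters included, AP-1 was in 9.17% and TCF/LEF in 4.07%.

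Each named peak can be set beside its difference between S+P C7 and S+P C5. Over the 8 leading opening peaks the log2 difference of S+P C7 against S+P C5 ran from -1.03 (Mmp10, called) to 0.08 (Wwox), with a median of -0.21. Over all 41 named opening calls it ran from -1.03 to 0.33 with a median of -0.09, and the lower end held Nfil3 (-0.75), Slamf7 (-0.62), Cd44 (-0.61), Il15ra (-0.59) and Fasl (-0.57). Over the 8 leading closing peaks it ran from -1.54 (Klf5) to -0.57 (Irs2). Of these Klf5, St6gal1 (-1.30), Ankrd50 (-0.98), Bach2 (-0.97) and Tnfrsf10b (-0.91) were called, and St8sia1 (-0.87), Tspan11 (-0.62) and Irs2 were short of the fold threshold. Over all 32 named closing calls the range was -1.54 to 0.11 with a median of -0.92, and Nfatc1 (-0.55), the Bach2 peak 126 kb into the gene (-0.52) and Il7r (-0.48) were not called. Both comparisons use the same S+P C7 libraries, so these values are not independent of the ones above.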

How the data were processed

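ATAC-seq libraries were made from sorted CD8+ T cells, amplified for the sequencer and run together. The authors trimmed reads with Cutadapt 3.4, aligned them to GRCm39 with Bowtie2 2.2.9, removed PCR duplicates with Picard 2.21.8, called peaks for each library with Genrich 0.6.1, took peaks reproducible within each group, merged them with bedtools 2.27.1 and counted reads per merged peak with deepTools. The deposited table holds these raw read counts, not normalized. The peak lists deposited per group hold, per the file headers and values, a score, a signal value and p-value and q-value columns, and only their coordinates were used here. Duplicated reads were removed without molecular identifiers, so a count is not an exact number of molecules.

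Peaks were tested in DESeq2 1.42.0 (Wald test, R 4.3.3) over the 8 libraries, with replicate number and group in the model, Benjamini-Hochberg adjustment over all peaks and unshrunken fold changes. A call needed adjusted p below 0.1 and a log2 fold change beyond 0.9, the thresholds of the study. Normalized counts are counts divided by size factors over all 25 libraries, so they serve within a peak and are not corrected for peak length. S+P C7 was compared with S+P C5 in the same way. Genes were assigned by nearest protein-coding start in GENCODE vM39. The scripts were tested on simulated counts before use. Single library values were compared with a two-sided exact permutation test.

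The members and gene lists were chosen with earlier results of these data known. Named peaks were the 8 opening and 8 closing calls with the smallest adjusted p among those without overlap between groups, up to 3 opening and 3 closing calls for each of 20 gene lists, all peaks of Pdcd1 and Nt5e, the leading peak of Tigit, Lag3, Tox, Nfatc1, Maf, Tcf7, Satb1, Eomes, Tbx21 and Il7r, and the 5 genes with most calls in each direction. No peak was nearest to Lag3. Other genes named were chosen after their values were seen. The alternatives were other tools (edgeR 4.0.16, limma 3.58.1), scalings, filters, thresholds, sets of libraries and leaving out libraries. The methods describe cell suspensions of individual mice, and neither they nor the labels say which libraries share a mouse. The DESeq2 p-values are set against the variation between these libraries that group and replicate number leave.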

Additional observations from a re-analysis of the deposited data

Results flagged for a closer look

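Among 172 groups of 4 libraries, 13 held a library far from the other 3, where chance alone gives about 1 in 20. Values are normalized counts. S+P C7 replicate 1 was above the other S+P C7 libraries at closing peaks of Nfatc1 (139 against 39.8 to 56.6), Bach2 126 kb into the gene (349.6 against 239 to 255), Ifng (265 against 136 to 151), Rgs10 (76.5 against 28.2 to 32.3) and Cblb (179 against 59.6 to 71.2). It was above them too at the opening Tigit peak (324 against 224 to 237) and the uncalled Pdcd1 peak 26.7 kb upstream (279.8 against 186 to 197). At that Pdcd1 peak S+P C4 replicate 2 was at 259.6 against 211 to 217. S+P C4 replicate 3 was above the other S+P C4 libraries at opening peaks near Cxcr3 (337 against 194 to 201), Stat3 (214 against 119 to 135) and Maf (157 against 72.7 to 81.7). S+P C4 replicate 1 was at 296 against 195 to 210.3 at the Nt5e peak 85.3 kb upstream, and its highest peak took 1.28% of counts against 0.193% to 0.203%.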

How the results depend on the processing

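The labels do not say that equal replicate numbers mark the same mouse, and the pairing check was mixed. Deviations of same-numbered libraries correlated at 0.612, 0.0639, 0.385 and 0.666, and 3 of 4 S+P C7 libraries were closest to their own number, which is a hint from the data only. Without the replicate block 1044 peaks were called, 332 opening and 712 closing, so the pairing moved few calls, and 70 of 73 called named peaks kept their call.

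Over 27 alternatives the calls numbered 772 to 1320, apart from the test without a fold threshold (3493, with 1677 opening and 1816 closing). Loess offsets gave 342 closing peaks in place of 716, with 341 of them shared. edgeR called 1059 and limma-voom 969. Leaving out a pair gave 908 to 1320 calls, 273 to 465 opening and 615 to 855 closing. Without the block, leaving out a library gave 772 to 1300 calls, 250 to 438 opening and 486 to 862 closing. No such library moved a count by over 1.5 times. Among the 73 called named peaks, leaving out S+P C4 replicate 1 moved 3 values by over 1.5 times, at Wwox (3.497 to 4.29), Ppp2r5c (2.59 to 3.30) and Gpr15 (-1.45 to -0.80, call lost), and leaving out S+P C7 replicate 1 moved Tgfbr3 (-2.28 to -2.88). Loess offsets moved 19 by 1.51 to 3.21 times, Mmp10 (2.89 to 3.48), Il15ra (1.70 to 2.30) and Nfil3 (1.67 to 2.273) among them. Thinning moved Trps1 (2.45 to 3.17), Ikzf2 (1.85 to 2.57) and a Bach1 peak (-2.03 to -3.40), and with the offsets the closing calls of Cd96, Cd226, Dpp4, the weaker Bach1 peak, Tgfbr2, Gpr15, Ets1 and Mcm3 were lost. Of the 73 called named peaks 52 kept their call under every alternative and 64 without replicate 1. Calls lost most often were those of Etv6, Itgax and the weaker peaks of Bach1 and Eomes. The cause was not tested.

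Sign changes were seen at 4 uncalled peaks. At Pdcd1 the peaks 26.7 and 39.4 kb upstream, at -0.10 each, ran from -0.24 to 0.0095 and from -0.27 to 0.0035 when a pair was left out, and reached 0.013 and 0.012 without the block and without replicate 2 of S+P C4 or of S+P C7. At Nt5e the peak 85.3 kb upstream was at 0.077 after thinning and 0.054 without S+P C4 replicate 1. The Nt5e intronic peak was at 0.024 in limma-voom, 1.18 with loess offsets, -0.44 to 0.41 when a pair was left out, and 0.33, 0.065 and 0.092 without the block when S+P C4 replicate 1 or a PD1+ library (replicate 1 or 4) was left out. With every library thinned to the shallowest, 1107 peaks were called, 389 opening and 718 closing.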

Other observations

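Several further loci held runs of called peaks. Near Otulinl 5 of 9 peaks closed, all between 43.6 and 146 kb from its start (log2 -2.12 to -0.99), and the promoter peak gave -0.08 (adjusted p = 0.588). Lmnb1, encoding lamin B1, opened at 3 of 6 peaks within introns, 24.8 to 30.1 kb from its start (log2 1.09 to 1.53), and Cables1 opened at 3 of 3 peaks, the promoter included (log2 1.12 to 1.16).

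Tnfaip3, which encodes the NF-kB brake A20, had 14 peaks. A cluster of 3 closed, 102 to 112 kb upstream (log2 -1.98 to -2.11), 1 opened 68.7 kb away (log2 0.97), and the promoter was at 0.01. Ptprc, which encodes CD45, had 2 closing peaks about 275 and 277 kb away (log2 -1.62 and -1.43), 1 opening peak 10.4 kb away (log2 0.91) and a promoter value of -0.03. These genes were chosen after their values were seen.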
